A study of Mus musculus with 16 samples.

Results

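The genes described here were 36 named members of glycolysis, lactate handling and the response to low oxygen, chosen by symbol, and all 36 were found among the 41214 genes of the count tables. RNA sequencing libraries were made from T cell acute lymphoblastic leukaemias (T-ALL) of 16 C57Bl6 mice, 1 library per mouse and 2 mice in each of 8 groups. Leukaemia was induced by ICN, the activated intracellular part of Notch, in 12 mice, and arose without ICN in 4 mice that lacked p53. The study asked how deletion of the POZ domain of Miz1, a zinc finger transcription factor, changed expression in these leukaemias. Among the ICN mice, the groups with wild-type p53 were Miz1 wt, Miz1 deltaPOZ with the title suffix Lck, and Miz1 deltaPOZ with the suffix Vav. The same 3 Miz1 groups existed with ICN and p53 ko. The groups without ICN, written noICN, were Miz1 wt p53 ko and Miz1 deltaPOZ Vav p53 ko. The labels do not explain the suffixes, and the sources used here give no age, sex, organ or batch. The 2 mice of a group are called replicates 1 and 2, and p-values of group comparisons set differences against the spread between mice of a group.

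Glycolysis turns glucose into pyruvate in the cytosol. Lactate dehydrogenase, a tetramer of A subunits (Ldha) and B subunits (Ldhb), interconverts pyruvate and lactate, and carriers such as Slc16a3 move lactate out of the cell. The transcription factor HIF, whose oxygen-sensitive subunit is encoded by Hif1a, is marked for destruction by prolyl hydroxylases (Egln1, Egln3) when oxygen is present, and when it accumulates it activates glucose carriers, glycolytic enzymes and genes such as Vegfa and Bnip3. Dividing T cells and T-cell leukaemias are known for high glycolytic flux.

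Libraries held 36463524 to 68523196 gene counts (median 50171983), and levels are given as CPM, which relates the counts of a gene to the total of its library after scaling for composition. Markers of T cells summed to 3709 to 5781 CPM without ICN and to 2586 to 3675 CPM with ICN, and none of these 10 markers was at 0 in any library. Markers of other cells differed with the groups. The 9 erythroid markers summed to 6.98 to 44.6 CPM in the 4 noICN libraries and to 4868 to 26210 CPM in the 12 ICN libraries, and the 10 neutrophil markers to 2.10 to 3.04 CPM and 55.1 to 9189 CPM. B cell markers summed to 10.9 to 29.6 CPM without and 20.7 to 402.1 CPM with ICN, macrophage markers to 109.7 to 304.8 and 126.6 to 1466 CPM, and endothelial and stromal markers to 178.0 to 309.5 and 95.8 to 189.7 CPM. In the noICN libraries up to 2 erythroid markers and up to 4 neutrophil markers were at 0 counts. ICN status, this content of other cells, and whatever else set the noICN mice apart cannot be told apart.

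All 36 genes passed the filter on low counts. Per kilobase of exon, the median level over 16 libraries was highest for Ldha (243.7 CPM per kb), followed by Pkm, the last enzyme of glycolysis (206.7), Slc16a1, a lactate and pyruvate carrier (154.8), Aldoa, the main aldolase (132.6), and Tpi1, triose phosphate isomerase (98.7). At the low end lay Vegfa, the vessel growth factor (1.40), Bnip3, a mitochondrial protein that promotes mitophagy (0.948), Aldoc (0.431) and Eno2 (0.239), the aldolase and enolase forms best known from brain. Ldhb had a median of 6.08 CPM per kb and stood at rank 24 of 36. The order depends on the length used. Per kilobase of the longest coding transcript, Ldha and Pkm stayed at ranks 1 and 2, while Gapdh stood at rank 4 and Slc16a1 at rank 6. The widest range between libraries was that of Ldhb, 639-fold from 0.307 to 196.1 CPM, ahead of Vegfa at 70.0-fold and Slc16a3 at 40.1-fold, and the narrowest was that of Pdk3, a kinase that inhibits pyruvate dehydrogenase, at 1.62-fold. The median SD of log2 CPM was 0.611 for these genes and 0.559 for all 17470 genes tested, and within groups it was 0.428 and 0.458.

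Levels differed among the 8 groups for 10 of the 36 genes, against 14.6% of all genes tested (edgeR quasi-likelihood test, adjusted p under 0.05 over all genes). By p, these were Ldhb (adjusted p = 0.00015, rank 3 of all genes), Bnip3 (0.00231), Slc16a3 (0.00588), Pfkfb3 (0.00995), Egln3 (0.0115), P4ha1 (0.0197), Vegfa (0.0201), Slc2a1 (0.0227), Hk1 (0.0279) and Pkm (0.0329). DESeq2 called 17 of the 36 (30.9% of all genes), limma voom 9 (12.1%), and edgeR without a filter on low counts 24 (20.8%). All 10 were also among the genes that differed between leukaemias with and without ICN, so most of the account below follows that contrast.

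**Figure D1:**
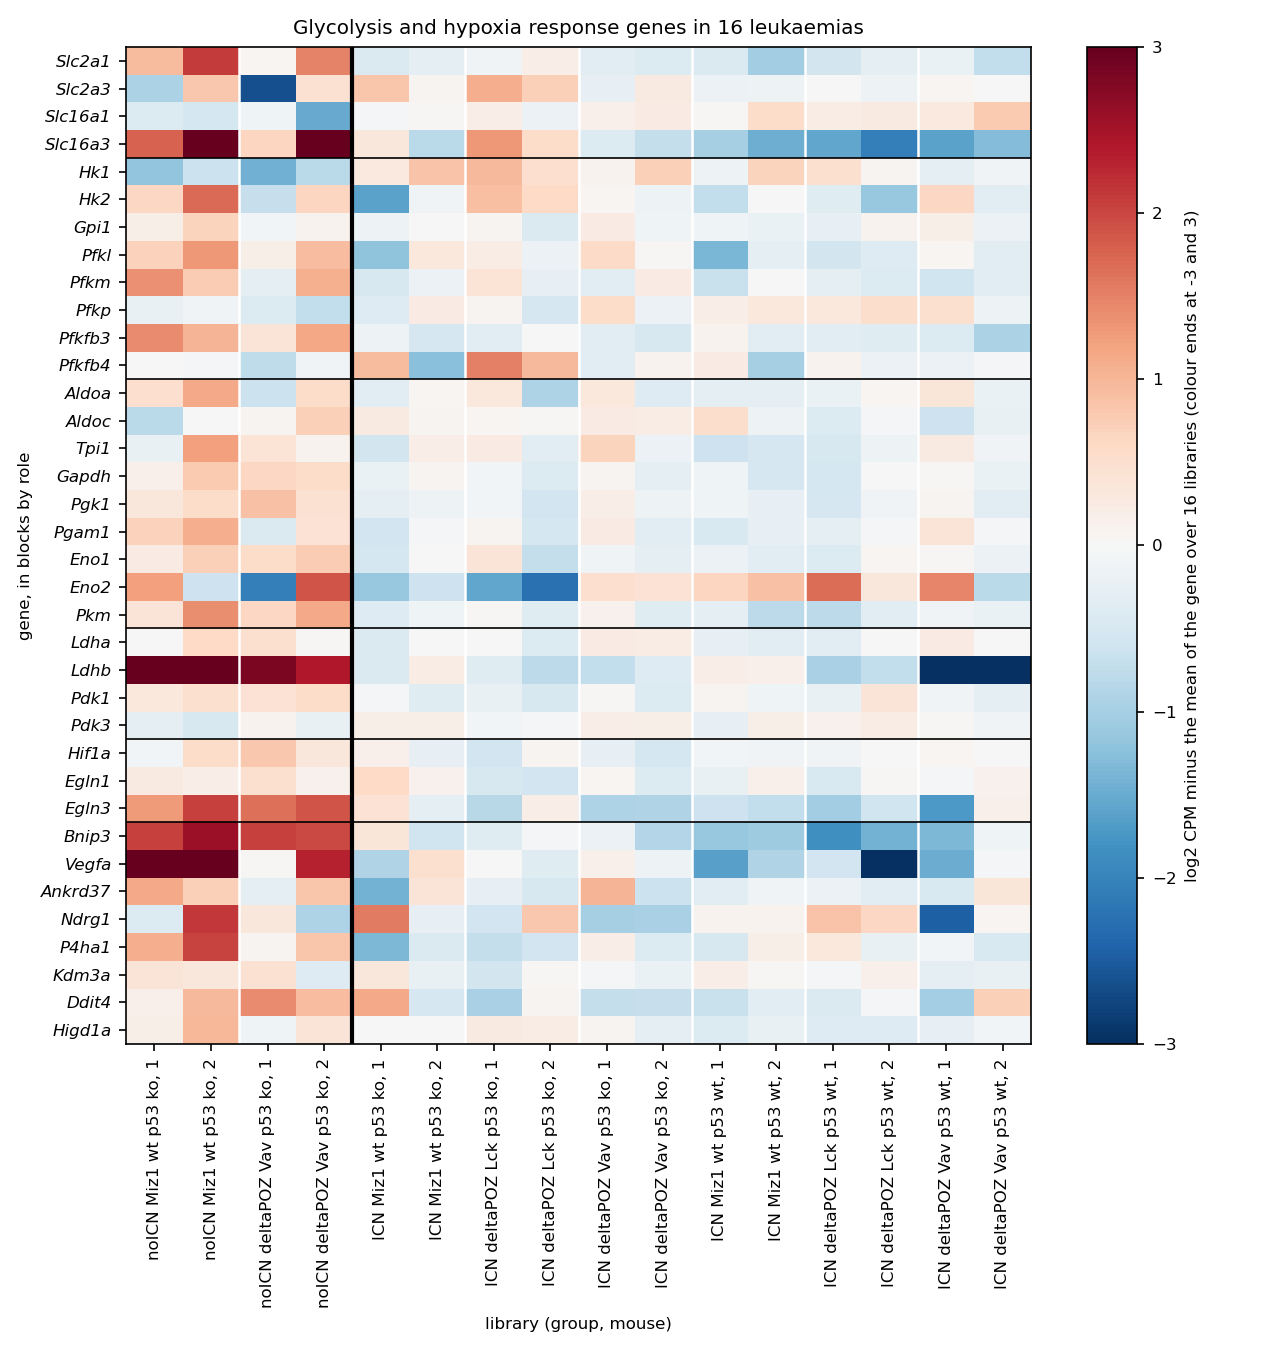
Level of each of the 36 genes (rows, in blocks by role) in each of the 16 libraries (columns, by group and mouse), as log2 CPM minus the mean of that gene over the 16 libraries. The 4 noICN columns at the left are higher for Ldhb, Bnip3, Egln3 and Pkm than the 12 ICN columns and lower for Hk1, and both ICN deltaPOZ Vav p53 wt columns at the right are lowest for Ldhb.

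The promoters of the genes that this account turns on are shown for their HIF and E-box letters, because HIF binds sites with the core ACGTG or GCGTG and other factors, MYC among them, bind the E-box CACGTG. Each window runs from 250 bases before to 50 bases after an annotated start, 5′ to 3′ on the strand of the gene, and capitals mark ACGTG and GCGTG on either strand. The sequences are from RefSeq on GRCm38.p6. Ldha is shown at chr7:46845554-46845853 (plus strand), the upstream of its 2 windows, Ldhb at chr6:142507908-142508207 (minus strand), Bnip3 at chr7:138909457-138909756 (minus strand), Egln3 at chr12:54203825-54204124 (minus strand) and Hk1 at chr10:62340372-62340671 (minus strand), the downstream of its 2 windows.
Ldha: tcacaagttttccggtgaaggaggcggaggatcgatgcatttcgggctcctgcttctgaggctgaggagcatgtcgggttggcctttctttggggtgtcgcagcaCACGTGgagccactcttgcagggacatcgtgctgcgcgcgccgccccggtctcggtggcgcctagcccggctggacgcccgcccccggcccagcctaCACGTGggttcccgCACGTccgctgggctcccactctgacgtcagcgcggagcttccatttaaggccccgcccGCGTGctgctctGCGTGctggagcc
Ldhb: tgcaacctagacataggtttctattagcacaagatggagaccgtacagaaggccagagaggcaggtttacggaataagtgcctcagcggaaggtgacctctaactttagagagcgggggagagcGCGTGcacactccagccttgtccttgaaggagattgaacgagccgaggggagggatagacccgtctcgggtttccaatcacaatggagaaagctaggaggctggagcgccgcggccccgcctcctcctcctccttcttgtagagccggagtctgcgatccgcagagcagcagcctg
Bnip3: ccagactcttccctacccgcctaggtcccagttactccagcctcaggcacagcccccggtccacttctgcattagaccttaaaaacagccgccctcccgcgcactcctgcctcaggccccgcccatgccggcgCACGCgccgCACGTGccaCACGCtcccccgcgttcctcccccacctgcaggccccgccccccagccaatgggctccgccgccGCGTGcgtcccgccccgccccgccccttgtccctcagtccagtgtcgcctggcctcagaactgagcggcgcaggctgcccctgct
Egln3: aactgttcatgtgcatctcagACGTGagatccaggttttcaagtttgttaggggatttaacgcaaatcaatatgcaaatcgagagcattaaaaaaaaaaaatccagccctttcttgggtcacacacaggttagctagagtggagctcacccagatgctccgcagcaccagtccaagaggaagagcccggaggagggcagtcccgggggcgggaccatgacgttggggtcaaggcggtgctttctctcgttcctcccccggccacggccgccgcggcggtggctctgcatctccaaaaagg
Hk1: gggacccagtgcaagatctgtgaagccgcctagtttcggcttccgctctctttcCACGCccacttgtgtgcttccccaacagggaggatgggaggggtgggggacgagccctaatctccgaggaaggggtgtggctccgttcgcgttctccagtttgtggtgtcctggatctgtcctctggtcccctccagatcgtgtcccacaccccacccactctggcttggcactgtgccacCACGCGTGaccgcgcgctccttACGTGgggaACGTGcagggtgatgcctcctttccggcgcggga
The Ldha window held ACGTG 5 times, counting both strands, and GCGTG 2 times. The E-box CACGTG occurred in it 2 times and reads as ACGTG on both strands, so each copy counts for 2 of the 5. The Ldhb window held 1 GCGTG and no ACGTG, the Bnip3 window 2 ACGTG (1 E-box) and 3 GCGTG, the Egln3 window 1 ACGTG, and the Hk1 window 2 ACGTG and 3 GCGTG. The windows not printed held fewer: the other Ldha window 0 ACGTG and 2 GCGTG, and the other Hk1 window 0 of both. Windows were found for 34 of the 36 genes, all but Slc2a3 and Ndrg1. Of their 50 windows, 39 held ACGTG or GCGTG on either strand, for 31 of 34 genes, and so did 43.8% of all 32851 windows of the table. ACGTG alone was in 27 of 50 windows (19.6% of all), GCGTG in 29 (32.4%), CACGTG in 6 (7.15%), and TGGGAA, the core bound by the Notch partner RBPJ, in 9 (25.6%). These are counts of letters in a window, not of bound sites.

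With p53 absent on both sides, 4 ICN leukaemias (Miz1 wt and deltaPOZ Vav) were compared with the 4 noICN leukaemias of the same Miz1 status. Of the 36 genes, 15 were lower and 1 was higher with ICN, a total of 16. Among all genes tested, 24% changed, 11.1% lower and 12.9% higher with ICN. The median log2 fold change of the 36 genes was -0.63 against -0.015 for all genes, and 29 of 36 had a negative value. A fall of this size was not particular to them, as the 10 T cell markers had a median of -0.594 and 9 negative values. The 15 lower genes included the lactate dehydrogenase B subunit (Ldhb), the glucose carrier Slc2a1, the lactate carrier Slc16a3, the pyruvate kinase Pkm, and the HIF responders Bnip3, Egln3 and Vegfa, and the 1 higher gene was the hexokinase Hk1. In bulk tissue, fewer cells of a type and less RNA per cell cannot be told apart, and the part of the other cells named above in these differences was not tested.

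Among the carriers, 2 of 4 fell and the other two did not pass. Slc2a1 (Glut1), a widely expressed glucose carrier, stood at 35.96, 79.3, 19.2 and 51.7 CPM in the noICN libraries (Miz1 wt 1 and 2, deltaPOZ Vav 1 and 2) and at 13.6, 15.3, 14.9 and 13.9 CPM in the ICN libraries in the same order. The sides did not overlap, and the level was 3.13-fold lower with ICN (log2 -1.65, SE 0.34, adjusted p = 0.0057). Slc16a3 (Mct4), which exports lactate and is a HIF target, was at 40.3, 114.9, 18.4 and 98.8 CPM without ICN and at 14.9, 6.73, 9.003 and 7.27 CPM with ICN. It was 7.19-fold lower with ICN (log2 -2.85, SE 0.52, adjusted p = 0.00313), again without overlap. Without replicate 2 of noICN deltaPOZ Vav the log2 value was -2.01 (adjusted p = 0.00884). Slc16a1 (Mct1) ran from 223.5 to 589.6 CPM without ICN and from 612.1 to 757.4 CPM with ICN, and this difference did not pass (log2 0.65, SE 0.26, adjusted p = 0.0936). Slc2a3 (Glut3), the high-affinity glucose carrier, ranged from 11.9 to 128.2 CPM without and from 62.0 to 131.2 CPM with ICN (log2 0.37, SE 0.53, adjusted p = 0.648).

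**Figure D2:**
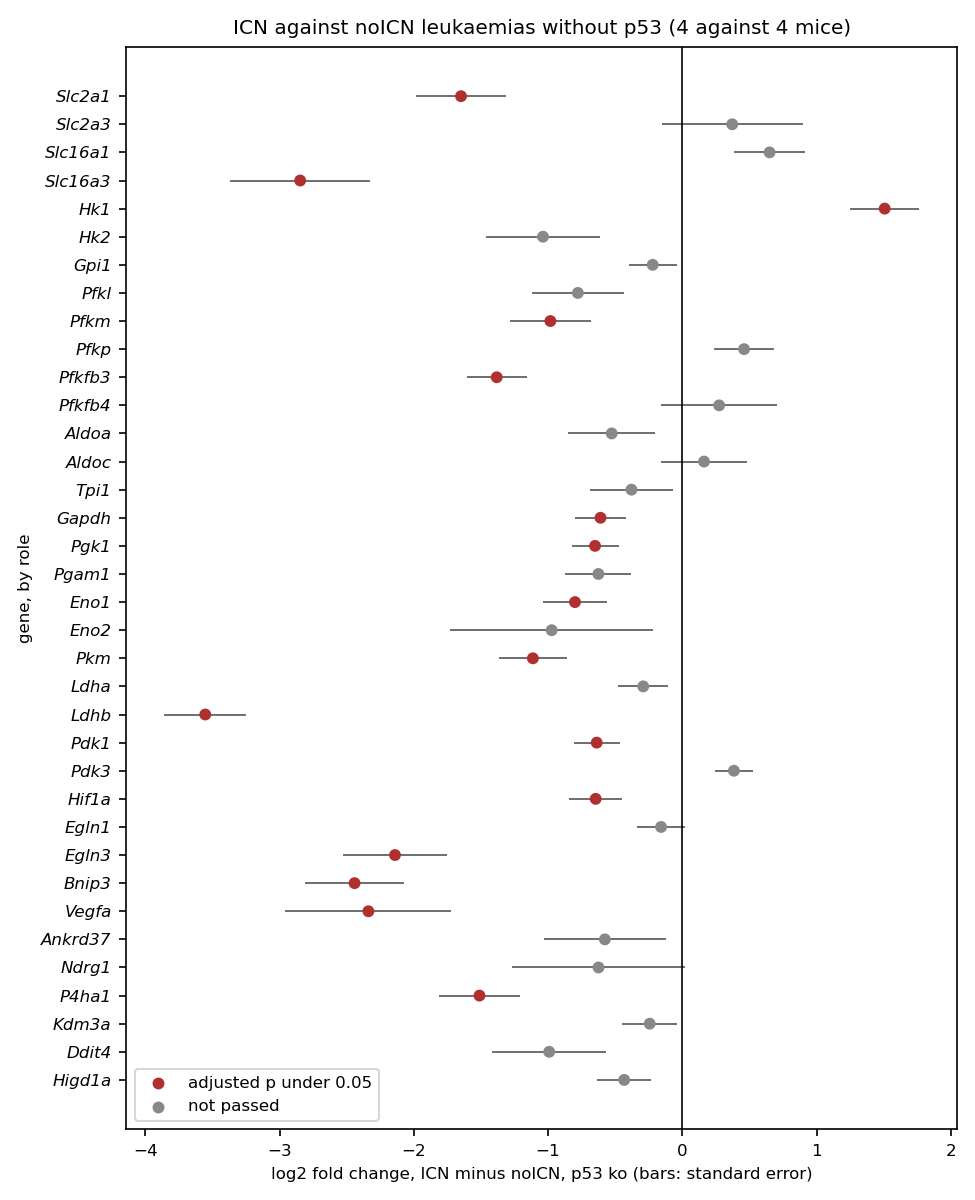
Log2 fold change of the 36 genes between 4 ICN and 4 noICN p53-ko leukaemias (x axis), in order of role. Points are edgeR estimates, and bars are standard errors derived from the F statistic. Red points have an adjusted p under 0.05. They are 15 genes to the left of 0, with Ldhb farthest at -3.55, and Hk1 to the right at 1.51.

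Of the 8 genes from hexokinase to phosphofructokinase, 1 rose and 2 fell with ICN. Hk1, the housekeeping hexokinase, was at 61.9, 89.1, 52.0 and 80.3 CPM without ICN and at 172.3, 252.8, 149.8 and 230.4 CPM with ICN. The 2.84-fold higher level with ICN passed (log2 1.51, SE 0.26, adjusted p = 0.00219), and the lowest of all 12 ICN libraries (113.8 CPM) lay above the highest noICN library. The relation of Hk1 to the summed erythroid markers across the 12 ICN libraries did not pass after adjustment (Pearson r = 0.776, permutation p = 0.00438, Spearman rho = 0.748, permutation p = 0.00757, adjusted p of r 0.0788 over 72 relations). Within the 6 p53 wt libraries r was 0.844 and within the 6 p53 ko libraries 0.751, and without the 2 libraries farthest from the median r was 0.752. Hk2, the inducible hexokinase, had 28.7, 60.8, 11.6 and 29.2 CPM without ICN and 6.21, 17.6, 19.5 and 17.0 CPM with ICN, with overlap and no call (log2 -1.04, SE 0.43, adjusted p = 0.099).

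Pfkfb3, which makes the phosphofructokinase activator fructose 2,6-bisphosphate, was at 72.7, 55.6, 35.7 and 61.4 CPM without ICN and at 24.5, 19.5, 22.1 and 19.7 CPM with ICN. It was 2.61-fold lower with ICN (log2 -1.38, SE 0.22, adjusted p = 0.00163), without overlap. Pfkm, the muscle-type phosphofructokinase subunit, fell by 0.98 on the log2 scale (SE 0.30, adjusted p = 0.0352), although its ranges overlapped (42.9 to 135.0 CPM without and 37.6 to 62.0 CPM with ICN). The liver-type and platelet-type subunits Pfkl (log2 -0.78) and Pfkp (log2 0.46), Pfkfb4 (0.27) and the isomerase Gpi1 (-0.22) did not pass.

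In the lower segment, from aldolase to pyruvate kinase, 4 of 9 genes fell, none rose and 5 did not pass. Pkm, whose product makes pyruvate, was at 1517, 3044, 1781 and 2569 CPM without ICN and at 892.4, 1064, 1271 and 897.9 CPM with ICN. It was 2.16-fold lower with ICN (log2 -1.11, SE 0.25, adjusted p = 0.00928), and its highest value among all 12 ICN libraries (1271 CPM) lay below all noICN libraries. Pgk1, phosphoglycerate kinase, stood at 284.9, 329.4, 414.9 and 312.1 CPM without ICN and at 188.5, 202.4, 260.4 and 203.9 CPM with ICN (log2 -0.65, SE 0.18, adjusted p = 0.0212). The sides did not overlap in Pgk1 either. Eno1, the main enolase (log2 -0.80, adjusted p = 0.0313), and Gapdh (log2 -0.61, adjusted p = 0.0399) fell by less than Pkm. Aldoa, Aldoc, Tpi1, Pgam1 and Eno2 had log2 values from -0.97 (Eno2) to 0.16 (Aldoc) and did not pass.

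The pyruvate step held the largest change of the 36 genes. Ldhb was at 196.1, 160.6, 87.8 and 66.0 CPM without ICN and at 9.12, 14.4, 7.46 and 9.46 CPM with ICN, an 11.7-fold lower level (log2 -3.55, SE 0.31, adjusted p = 2.85e-05, rank 78 of all genes). The lowest noICN library was above the highest of all 12 ICN libraries (14.4 CPM). Ldha, the partner subunit, had 808.4, 1228, 1127 and 835.9 CPM without ICN and 599.0, 806.2, 959.0 and 942.7 CPM with ICN, and these ranges overlapped (log2 -0.29, SE 0.19, adjusted p = 0.285). Pdk1, a HIF-induced kinase that inhibits pyruvate dehydrogenase, was at 236.4, 265.3, 256.5 and 275.3 CPM without and at 180.8, 147.0, 193.2 and 143.2 CPM with ICN (log2 -0.64, SE 0.17, adjusted p = 0.0202). Its sides did not overlap. Pdk3 went the other way by 0.38 (SE 0.14) without passing (adjusted p = 0.0688).

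Of HIF and its hydroxylases, Egln3 and Hif1a fell and Egln1 did not pass. Egln3, the hydroxylase that HIF itself induces, was at 50.6, 87.3, 66.5 and 77.2 CPM without ICN and at 28.2, 17.5, 11.1 and 11.2 CPM with ICN. The 4.41-fold lower level (log2 -2.14, SE 0.39, adjusted p = 0.00302) came without overlap. Hif1a ranged from 147.7 to 274.0 CPM without and from 107.8 to 172.6 CPM with ICN, a smaller change with overlap (log2 -0.65, SE 0.20, adjusted p = 0.037). Egln1, the main oxygen-sensing hydroxylase, lay from 86.1 to 110.7 CPM and from 59.4 to 119.9 CPM (log2 -0.16, SE 0.18, adjusted p = 0.563).

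Of the 8 other hypoxia response genes, 3 fell and 5 did not pass. Bnip3 stood at 10.8, 15.3, 10.8 and 10.2 CPM without ICN and at 3.33, 1.71, 2.29 and 1.40 CPM with ICN, 5.43-fold lower and without overlap (log2 -2.44, SE 0.37, adjusted p = 0.00113). Vegfa was at 55.3, 51.0, 6.55 and 31.8 CPM without ICN and at 3.41, 8.93, 7.15 and 5.74 CPM with ICN. Replicate 1 of the noICN deltaPOZ Vav group fell within the ICN range of Vegfa, and the other 3 noICN libraries lay above it (log2 -2.34, SE 0.62, adjusted p = 0.0195). The log2 value was -1.55 and did not pass without replicate 2 of that group (adjusted p = 0.0895), and it was -3.10 within Miz1 wt (adjusted p = 0.0505) and -1.57 within deltaPOZ Vav (0.276). P4ha1, a subunit of collagen prolyl hydroxylase, was at 101.3, 194.0, 50.1 and 85.4 CPM without and at 18.8, 35.6, 54.8 and 35.9 CPM with ICN (log2 -1.51, SE 0.30, adjusted p = 0.00535), with the same noICN library inside the ICN range. Within Miz1 wt the log2 value of P4ha1 was -2.44 (SE 0.44, adjusted p = 0.00788) and within deltaPOZ Vav -0.58 (SE 0.42, adjusted p = 0.423), and the difference between them did not pass (log2 1.86, SE 0.60, unadjusted p = 0.00987 in edgeR, adjusted p = 0.702). Ddit4, an inhibitor of mTORC1 (log2 -0.99), Ndrg1, a stress-responsive gene (-0.62), Ankrd37 (-0.58), Higd1a, a mitochondrial hypoxia-inducible protein (-0.43), and the histone demethylase Kdm3a (-0.24) did not pass.

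Replicate 1 of the noICN deltaPOZ Vav group was the lowest of the 4 noICN libraries for 17 of the 36 genes, and replicate 2 of the noICN Miz1 wt group was the highest for 19. Over all genes tested, these libraries were the lowest for 30.7% and the highest for 22.6%. The low library was at 11.9 CPM of Slc2a3 and 18.4 CPM of Slc16a3, against 101.2 and 98.8 CPM in the other mouse of its group. It was not low for Ldhb (87.8 CPM against 66.0 in the other mouse), Pgk1 (414.9 against 312.1) or Bnip3 (10.8 against 10.2).

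Within Miz1 wt alone, 7 of 36 genes passed between ICN and noICN (10.4% of all genes), and within deltaPOZ Vav alone 6 passed (8.06%). These within-status comparisons were added after the data had been seen. The test of whether the ICN difference itself depended on Miz1 status called none of the 36 genes in edgeR and 0% of all genes. At an unadjusted p under 0.05 there were 2 of 36 (5.56%), and 6.99% of all genes, and other tools were not run on it. Without replicate 2 of the ICN deltaPOZ Vav p53 ko group, 9 genes passed, all among the 16, and Pdk1, Hif1a, Vegfa, Pfkm, Gapdh, Pgk1 and Eno1 no longer did. Those 9 (Ldhb, Bnip3, Pfkfb3, Hk1, Egln3, Slc16a3, P4ha1, Slc2a1 and Pkm) also passed in every other omission of a single library. DESeq2 called 17 of the 36 (29.5% of all genes) and limma voom 15 (21.3%). Without the named library, 13.6% of all genes passed in edgeR. Set against all 12 ICN libraries, of which 6 also differ in p53, 7 genes were higher in every noICN library than in any ICN library (Pfkfb3, Gapdh, Pgk1, Pkm, Ldhb, Bnip3 and Egln3), as were 5.74% of all genes tested. Only Hk1 of the 36 was lower in every noICN library, as were 8.25% of all genes.

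The balance of the lactate dehydrogenase subunits was followed in all 16 libraries as the ratio of Ldha to Ldhb, both per kilobase of exon. The ratio was 1.96 and 3.63 in the noICN Miz1 wt mice and 6.09 and 6.01 in the noICN deltaPOZ Vav mice. It was 31.2 and 26.6 in ICN Miz1 wt p53 ko, 39.7 and 40.0 in ICN deltaPOZ Lck p53 ko, and 61.0 and 47.3 in ICN deltaPOZ Vav p53 ko. With p53 wt it was 22.8 and 22.4 in ICN Miz1 wt, 48.9 and 51.1 in ICN deltaPOZ Lck, and 488.6 and 1247 in ICN deltaPOZ Vav. Every ICN library thus lay above every noICN library, and in each of the 3 backgrounds every deltaPOZ library lay above both Miz1 wt libraries. This holds for the ratio. Ldhb alone overlapped with ICN and p53 ko, at 9.12 and 14.4 CPM with Miz1 wt and from 7.23 to 9.64 CPM with deltaPOZ.

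Ldha varied less than Ldhb. It ran from 599.0 to 1228 CPM over all 16 libraries, a 2.05-fold range. Among ICN p53 wt leukaemias Ldhb reached 14.2 and 13.7 CPM in the Miz1 wt group, 6.33 and 7.45 in deltaPOZ Lck and 0.936 and 0.307 in deltaPOZ Vav. In ICN deltaPOZ Lck p53 ko mice it was 9.64 and 7.23 CPM, and the other groups are given above. The lowest pair rests on 49 and 18 counts. As a share of both subunits per kilobase, Ldhb made up 14.1% to 33.8% without ICN, 1.61% to 3.63% with ICN and p53 ko, and 0.0801% to 4.28% with ICN and p53 wt. The log2 ratio had a median of 5.14 over the 16 libraries and a pooled SD within groups of 0.42. With the length of the longest coding transcript in place of all exons the median was 5.74, so the ratio as a level depends on the length used, while differences between libraries do not.

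**Figure D3:**
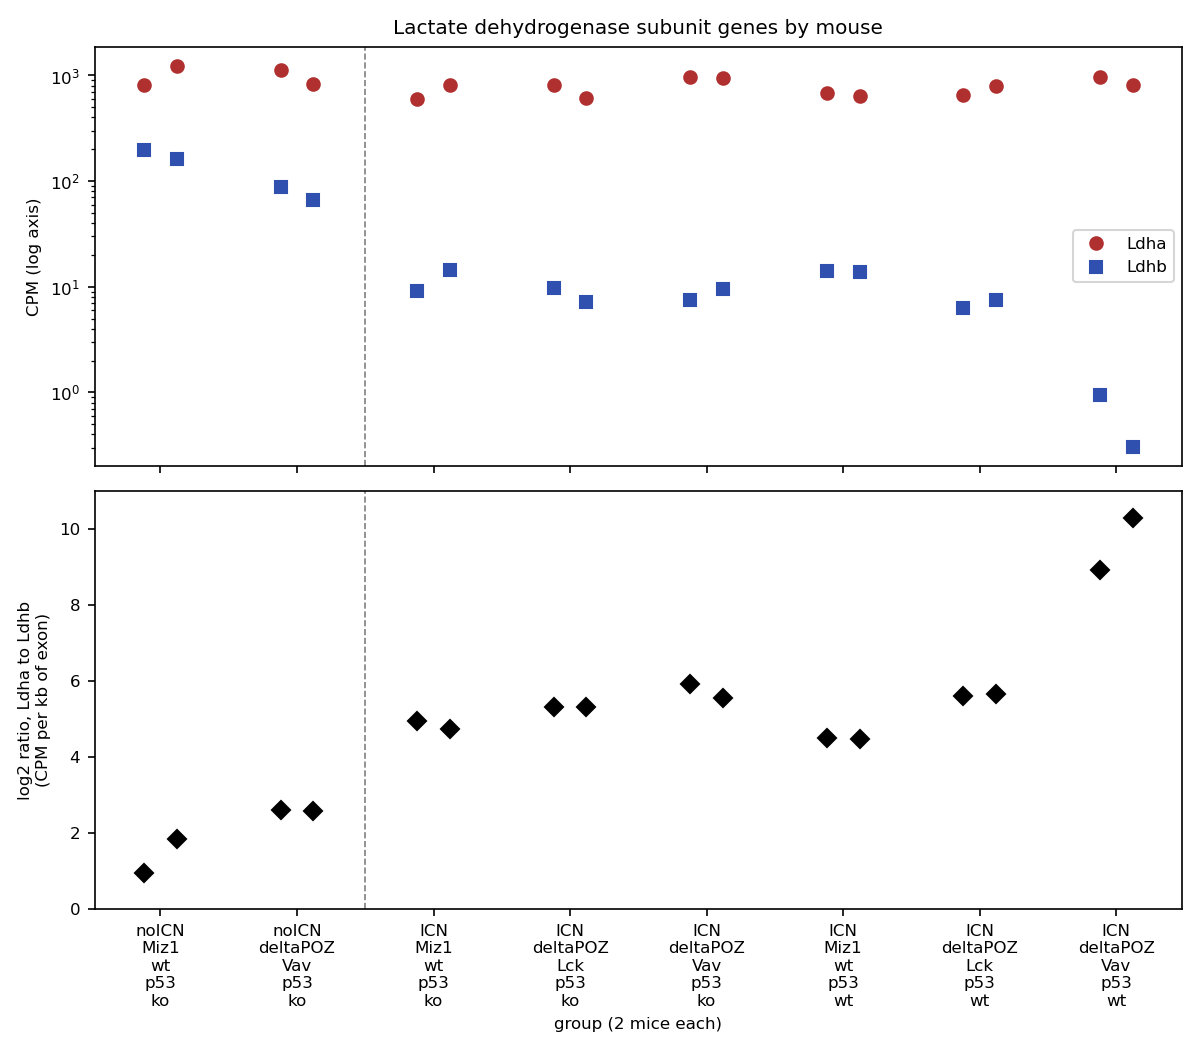
Ldha and Ldhb in CPM on a log axis (upper panel) and the log2 ratio of Ldha to Ldhb per kilobase of exon (lower panel) for each mouse, by group, with noICN groups left of the dashed line. Ldha stays between 599.0 and 1228 CPM while Ldhb runs from 196.1 down to 0.307 CPM, and the log2 ratio from 0.97 to 10.28.

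Other pairs of genes for the same step also differed in balance between ICN and noICN libraries, as descriptions without a test. Per kilobase, Slc2a3 made up 23.0% to 48.7% of both glucose carriers without ICN and 66.8% to 82.3% with ICN, without overlap. Slc16a3 made up 2.54% to 26.9% of both lactate carriers without ICN and 0.307% to 3.21% with ICN. Hk2 made up 24.1% to 49.4% of both hexokinases without ICN and 4.90% to 26.8% with ICN, and the ICN deltaPOZ Vav p53 wt mouse at 26.8% was the library that overlapped. Among the phosphofructokinase subunits, Pfkp took 11.2% to 24.9% without and 25.0% to 48.2% with ICN. Aldoc and Eno2 took at most 0.579% and 1.29% of their pairs in any library. These shares also depend on the length used. Per kilobase of the longest coding transcript, Slc2a3 exceeded Slc2a1 in replicate 2 of noICN Miz1 wt (32.4 against 24.3 CPM per kb). The same held in replicate 2 of noICN deltaPOZ Vav (25.6 against 15.9), but in replicate 1 of neither group.

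**Figure D4:**
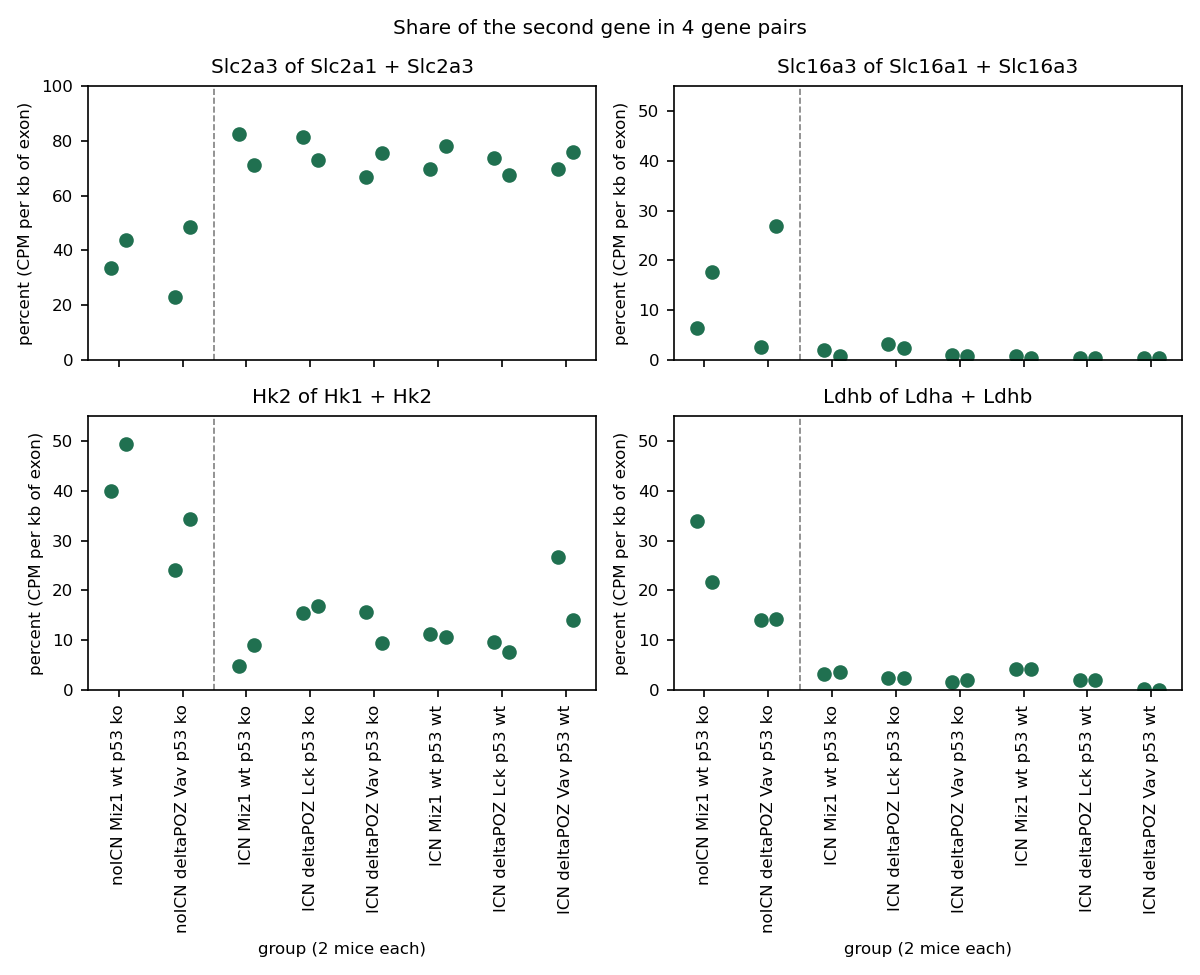
Share of the second gene in 4 pairs that serve the same step (percent of the sum, per kilobase of exon) for each mouse, by group, with noICN groups left of the dashed line. Slc2a3 takes the larger share in all 12 ICN libraries and the smaller one in all 4 noICN libraries. Slc16a3, Hk2 and Ldhb take the smaller share in all 16 libraries, and Ldhb reaches 33.8% in a noICN Miz1 wt mouse.

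For deltaPOZ against Miz1 wt, edgeR called none of the 36 genes in any background, and few genes of any kind were called. In the mean of the 3 backgrounds 0.0172% of all genes were called, and 1 of the 36 had an unadjusted p under 0.05 (4.92% of all genes). That gene was Ldhb (log2 -1.48, SE 0.21, adjusted p = 0.0714), followed by Ndrg1 (-0.96) and Egln1 (-0.23), both with an adjusted p of 1. DESeq2 called Ldhb (0.819% of all genes called, adjusted p = 8.62e-09), as did limma voom (0.0286%, adjusted p = 0.0207), so its call depends on the tool. In single omissions, Ldhb also passed in edgeR without replicate 1 or 2 of ICN deltaPOZ Vav p53 wt, or without replicate 2 of noICN Miz1 wt.

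With ICN and p53 wt, 0% of all genes were called by edgeR, and 1 of the 36 genes had an unadjusted p under 0.05 (1.87% of all genes). It was Ldhb (log2 -2.75, SE 0.34, adjusted p = 0.0775), whose 4 deltaPOZ libraries all lay below both Miz1 wt libraries. The next were Pfkfb3 (log2 -0.40), at 29.3 and 21.9 CPM with Miz1 wt, 21.7 and 21.3 in Lck and 20.7 and 14.3 in Vav mice, and Aldoc (-0.53), both with an adjusted p of 1. DESeq2 called 1 of the 36, Ldhb (0.0885% of all genes), limma voom 0, and edgeR 1 without replicate 1 of ICN deltaPOZ Vav p53 wt.

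With ICN and p53 ko, 0.00572% of all genes were called, and 1 of the 36 had an unadjusted p under 0.05 (3.78% of all genes). This was Egln1, at 119.9 and 86.8 CPM with Miz1 wt, 56.9 and 52.9 in Lck and 82.0 and 59.4 in Vav mice (log2 -0.73, SE 0.22, adjusted p = 0.806). All 4 deltaPOZ libraries lay below both Miz1 wt libraries. Ddit4 (log2 -1.05) and Hk2 (log2 1.02) followed with adjusted p of 1, and replicate 1 of ICN Miz1 wt p53 ko was the highest of the 6 libraries for Ddit4 (114.7 CPM) and the lowest for Hk2 (6.21 CPM). DESeq2 (0.75% of all genes called) and limma voom (0.00572%) called 0 of the 36 genes here.

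Without ICN, 0% of all genes were called, and 3 of the 36 had an unadjusted p under 0.05 (7.68% of all genes). They were Ldhb (log2 -1.21, SE 0.40, adjusted p = 0.487), P4ha1 (-1.12, SE 0.43, 0.554) and Pgam1, phosphoglycerate mutase (-0.84, SE 0.35, 0.593). DESeq2 (1.47% of all genes called) and limma voom (0%) called 0 of the 36. The Miz1 wt mice had 80.7 and 105.8 CPM of Pgam1, and the deltaPOZ mice 36.8 and 67.2 CPM. The median log2 value of the 36 genes was -0.38 against 0.005 for all genes, and replicate 1 of the deltaPOZ group was the library described above as often lowest. The deltaPOZ values in ICN p53 ko and ICN p53 wt were also compared with each other. There 0% of all genes were called, and 1 of the 36 had an unadjusted p under 0.05 (2.6% of all genes), Ldhb, whose fall with deltaPOZ was smaller with p53 ko (log2 difference 2.28, SE 0.50, adjusted p = 1). DESeq2 called it (0.171% of all genes) and limma voom did not. Egln1 (-0.68) and Ddit4 (-1.47) were next.

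Between p53 ko and p53 wt leukaemias, both with ICN and 6 mice each, edgeR called none of the 36 genes, against 0.195% of all genes. At an unadjusted p under 0.05 there were 5 of 36 (13.9%), and 15.5% of all genes. Slc16a3 was at 2.87 to 5.94 CPM with p53 wt (median 4.17) and at 6.73 to 29.1 CPM with p53 ko (median 11.97), without overlap (log2 1.58, SE 0.41, adjusted p = 0.119). Ldhb had a log2 value of 1.27 (SE 0.24, adjusted p = 0.0645) with overlapping sides, 0.307 to 14.2 CPM (median 6.89) and 7.23 to 14.4 CPM (median 9.29). The 3 Miz1 groups differed in this. From p53 wt to p53 ko, mean Ldhb went from 0.6215 to 8.457 CPM in deltaPOZ Vav and from 6.889 to 8.435 CPM in deltaPOZ Lck. In Miz1 wt it went the other way, from 13.94 to 11.75 CPM. Bnip3 was at 0.730 to 2.39 CPM (median 1.10) and 1.40 to 3.33 CPM (median 2.15), with a log2 value of 0.85 (SE 0.29, adjusted p = 0.193). DESeq2 called these 3 genes (6.29% of all genes) and limma voom 0, and edgeR called Ldhb without replicate 1 of ICN deltaPOZ Vav p53 wt.

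In the same libraries neutrophil markers summed to 55.5 to 905.3 CPM (median 226.8) with p53 wt and to 55.1 to 9189 CPM (median 2686) with p53 ko. These sums overlapped, and 0 of the 10 markers passed in edgeR, with 10 of 10 at an unadjusted p under 0.05 and a median log2 value of 3.09. Macrophage markers summed to 126.6 to 264.9 CPM (median 189) with p53 wt and to 209.8 to 1466 CPM (median 326) with p53 ko. Of these 10 markers 0 passed and 9 had an unadjusted p under 0.05, with a median log2 value of 0.97. The highest macrophage sums (1466 and 1075 CPM) were in the ICN deltaPOZ Lck p53 ko libraries, which also had the highest neutrophil sums. Macrophage sums were not related to the 36 genes, and the part of either cell type in the p53 values was not tested. Relations of the 36 genes with 2 marker sums, 72 in all, were tested across the 12 ICN libraries by permutation and adjusted over the 72. Of the 36 genes, 3 rose with the neutrophil sum, and 0 did so by Spearman's rho after adjustment. Only the 36 genes were related to the sums, so no share of all genes can be set beside this count. The permutations shuffled the 12 libraries without regard to group or p53 status. Pfkfb4, a relative of Pfkfb3, had r = 0.922 (permutation p = 4e-05, adjusted p = 0.00288) and rho = 0.846 (permutation p = 0.00094, adjusted p = 0.0677). It was highest, at 24.1, 16.5 and 16.2 CPM, in the 3 libraries with the highest marker sums (9189, 6526 and 3805 CPM), and r was 0.859 without the 2 libraries farthest from the median, 0.794 within p53 wt and 0.981 within p53 ko.

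Slc16a3 had r = 0.819 with the neutrophil sum (permutation p = 0.00116, adjusted p = 0.0418) and rho = 0.713 (permutation p = 0.0118, adjusted p = 0.283). Within p53 wt its r was 0.356 and within p53 ko 0.830, and without the 2 farthest libraries it was 0.629. For Slc2a3, r was 0.798 (permutation p = 0.0018, adjusted p = 0.0432) and rho 0.531 (permutation p = 0.0799, adjusted p = 0.479), with 0.080 within p53 wt, 0.787 within p53 ko and 0.599 without the 2 farthest libraries. In the noICN libraries, where neutrophil markers were at most 3.04 CPM, Slc16a3 was at 18.4 CPM or more in all 4.

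**Figure D5:**
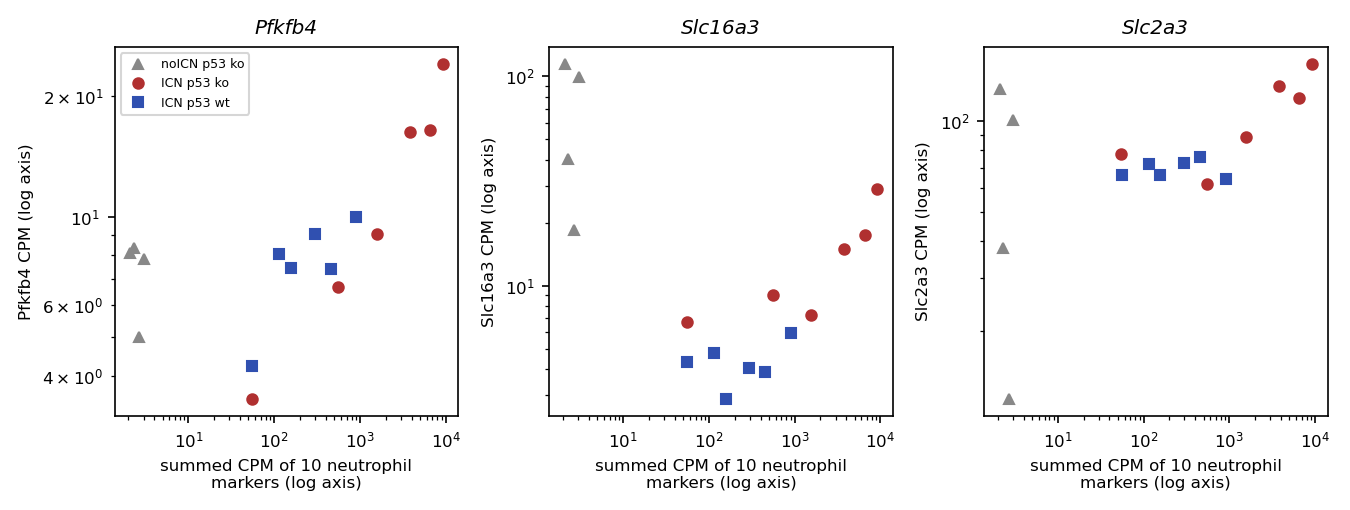
Pfkfb4, Slc16a3 and Slc2a3 (CPM, log axis) against the summed CPM of 10 neutrophil markers (log axis), 1 point per library, with noICN as triangles, ICN p53 ko as circles and ICN p53 wt as squares. In the ICN libraries the 3 with the highest marker sums also have the highest Pfkfb4 (16.2 to 24.1 CPM), while noICN libraries have marker sums of 2.10 to 3.04 CPM at Slc16a3 levels of 18.4 to 114.9 CPM.

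Between Lck and Vav deltaPOZ leukaemias with ICN, 4 mice each, edgeR called none of the 36 genes and 0% of all genes, and 1 of the 36 had an unadjusted p under 0.05 (3.15% of all genes). This was Ldhb (log2 1.74, SE 0.30, adjusted p = 0.551), which DESeq2 called (0.134% of all genes) and limma voom did not. The Ldhb value averages over p53 status, and its gap lay in the p53 wt leukaemias. There the group mean of Ldhb was 6.889 CPM for Lck but 0.6215 CPM for Vav, the latter resting on 49 and 18 counts. With p53 ko the group means of Ldhb were nearly equal, at 8.435 CPM (Lck) and 8.457 CPM (Vav). Ndrg1 (log2 1.36) and Ldha (log2 -0.36) had the next lowest p. For Ldha all Lck libraries (609.0 to 806.0 CPM) lay below all Vav libraries (807.2 to 964.2 CPM), with an adjusted p of 1.

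Other genes of these pathways were taken from 3 further lists. Of 38 other glycolysis and pyruvate genes, 32 were tested, and 6 rose and 6 fell with ICN. Among all genes tested, 12.9% rose and 11.1% fell. Pklr, the pyruvate kinase of liver and red cells, had 0 counts in all 4 noICN libraries, where 3 counts over the group would be 0.0142 CPM, and 29.4 ± 9.5 CPM (SD, n = 4) with ICN, at least 2060-fold higher. Slc2a4, the insulin-responsive glucose carrier, was at 0.0229 to 0.139 CPM without ICN and at 6.95 to 37.6 CPM in the 4 ICN libraries (adjusted p = 8.8e-05), and Bpgm, which makes 2,3-bisphosphoglycerate in red cells, rose from 22.7 to 42.3 CPM to 103.6 to 246.2 CPM (log2 2.64, SE 0.43, adjusted p = 0.00179). The D-lactate dehydrogenase Ldhd fell with ICN, from 11.4 to 90.6 CPM to 0.346 to 2.34 CPM (log2 -4.51, SE 0.85, adjusted p = 0.00369). Pklr, Slc2a4 and Bpgm were high in the libraries with high erythroid markers, and the part of erythroid cells in these values was not tested.

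Of 14 other regulators of HIF, 2 fell (Rbx1 and Ep300) and none rose with ICN. Of 31 other hypoxia response targets, 30 were tested, and 7 fell and 2 rose. Their median log2 value was -0.68 against -0.015 for all genes. The other 2 lists did not share this shift. Their medians were -0.024 for the 14 regulators of HIF and 0.112 for the 32 other glycolysis and pyruvate genes tested. Beside the counts of regulators and hypoxia response targets, 11.1% of all genes tested fell and 12.9% rose with ICN. Jmjd6, an oxygen-dependent hydroxylase, was at 104.2 to 134.9 CPM without and at 39.7 to 75.2 CPM with ICN (log2 -0.97, SE 0.16, adjusted p = 0.00197). Ak4, a mitochondrial adenylate kinase, was at 102.8, 63.9, 1.95 and 48.2 CPM without ICN, again low in replicate 1 of deltaPOZ Vav, and at 0.755 to 6.06 CPM with ICN (log2 -4.30, SE 0.96, adjusted p = 0.00884). No gene of the 3 lists passed in a deltaPOZ, p53 or Lck against Vav contrast in edgeR.

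Some of these counts carry an uncertainty from near-identical copies, since reads that align to several places were left out. Stretches of at least 200 bases at 95% identity or more linked the Gapdh transcript with 78 other genes, 75 of them pseudogenes, over 88% of its length, Bnip3 with 5 genes over 94.2% and Eno1 with 3 over 85.6%. For Ldhb this was 1 pseudogene over 76.8% of the transcript, for Pgk1 4 over 68.8%, for Pkm 2 genes over 65.5% and for Ldha 4 pseudogenes over 55%. No such copy was found for Slc2a1, Slc16a3, Hk1, Pfkfb3, Egln3, Vegfa or P4ha1. Slc2a1, Hk1, Pfkm, Gapdh, Bnip3 and Hif1a overlap a gene on the opposite strand, and Ldha and Ldhb do not.

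The genes that carried the results lie, on GRCm38, at chromosome 6, 142490249 to 142507957 (Ldhb, ENSMUSG00000030246, minus strand), chromosome 7, 46841475 to 46855627 (Ldha, ENSMUSG00000063229, plus strand), chromosome 10, 62268855 to 62379908 (Hk1, ENSMUSG00000037012, minus strand), and chromosome 11, 120948480 to 120960868 (Slc16a3, ENSMUSG00000025161, plus strand). Bnip3 (ENSMUSG00000078566) lies on chromosome 7, 138890836 to 138909519, and Egln3 (ENSMUSG00000035105) on chromosome 12, 54178981 to 54203860, both on the minus strand. All are protein coding, and counts refer to their annotated exons.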

How the data were processed

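Gene counts were analysed for 16 libraries of total RNA, made with a stranded mRNA kit, per the labels. The deposited values are raw counts per Ensembl gene, 1 table per mouse. The submitters' processing notes name GRCm38 and mm10 as builds, and DESeq, HTSeq, SAMtools and TopHat2 (version 2.0.10) as tools. The sources used here do not give their roles, the annotation release or the strand setting. Totals that name no gene were left out: alignments that were not unique took 45.81% to 63.74% of a library and reads outside genes 14.22% to 21.5%. Names and exon lengths came from GENCODE mouse release M21, which held 40340 of the identifiers.

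A model over 8 groups was fitted to the counts in edgeR 4.0.16 with R 4.3.3 (17470 genes after filterByExpr, TMM factors 0.952 to 1.05, 8 residual degrees of freedom, common dispersion 0.208), with a quasi-likelihood F test and Benjamini-Hochberg adjustment over all genes at 0.05. Each SE was derived as the absolute log2 value divided by the square root of its F statistic. The script was tested on simulated data. Alternatives were other scalings and filters, robust estimation, DESeq2 1.42.0, limma voom 3.58.1, the groups of a contrast alone, and each replicate left out. Groups follow the labels and title suffixes, and replicate numbers are only names. Permutation tests drew 1e+05 resamples of the 12 ICN libraries without regard to group or p53 status, so their p also takes in differences between groups. Floors use 3 counts and cover counting error only.

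The 36 genes and all lists were chosen with earlier results of these data known. Ldha, Ldhb and, in each contrast, up to 12 genes that passed were given in full; where none passed, the 3 with the lowest p; of the other lists, up to 5 per contrast by p. Of 10 erythroid markers 9 were found, all but Ahsp. The within-status ICN comparisons were chosen after seeing the data.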

Additional observations from a re-analysis of the deposited data

How the results depend on the processing

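The number of the 36 genes that passed depended on filter and tool. For any difference among the groups it was 10 (14.6% of all genes). It was 24 when all genes with at least 1 count were kept (20.8%) and 17 in DESeq2 (30.9%). For ICN against noICN it was 16, with 9 to 17 over single omissions (9 without ICN deltaPOZ Vav p53 ko replicate 2, 13.6% of all genes). It was 7 within Miz1 wt and 6 within deltaPOZ Vav, both with fewer mice. Without the filter it became 20 (17.2% of all genes), and with the groups of the contrast alone 11 (14.2%). For deltaPOZ it was 0 in each case. Without the filter it became 2 in the mean of 3 backgrounds (1.67% of all genes), 1 with ICN and p53 wt (0.701%), 2 with ICN and p53 ko (1.54%), 3 without ICN (2.48%) and 2 for the difference between ICN backgrounds (1.26%). The mean gave 1 with a minimum of 1 CPM in 4 libraries, in DESeq2 and in limma voom, and 0 to 1 over omissions. DESeq2 gave 1 for ICN with p53 wt and 1 for the difference. Over omissions, which were run in edgeR only, ICN with p53 wt gave 0 to 1. For p53, 0 became 4 without the filter (5.28% of all genes), 3 in DESeq2 (6.29%), 1 with the groups of the contrast alone (0.887%) and 0 to 1 over omissions. For Lck against Vav, 0 became 2 without the filter (0.92%) and 1 in DESeq2. The median log2 ratio of Ldha to Ldhb was 5.14, 4.96 to 5.31 over omissions, 5.13 with 1 count added and 5.74 with coding transcript length. Signs were followed only for those of the 36 genes that passed in a contrast or, where none passed, the 3 with the lowest p. None of these changed sign under an alternative run on it. The median of all genes moved by at most 0.064 with scaling. The cause of these shifts was not tested.

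No paired analysis was possible because replicate numbers follow accession order and pair no mice across groups. Fewer than 50 counts stood behind the values of Eno2 in 8 libraries, of Aldoc, Bnip3 and Ldhb in 2 each and of Vegfa in 1, of 16 libraries. Each group held only 2 mice.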
